A study of Saccharomyces cerevisiae with 2 samples.

Results

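The proteasome genes of Saccharomyces cerevisiae described here are SCL1 and every gene whose standard symbol is PRE, PUP, RPN or RPT followed by a number. The systematic open reading frame names on the array were matched to symbols, and 34 of 6207 genes met the rule, which used no measured value. The core particle holds 14 of them (SCL1, PRE and PUP) and 20 carry the RPN and RPT symbols of the regulatory particle. RPN4 and RPN14 are among the 20 but encode a transcription factor and an assembly chaperone, so 32 of the 34 genes encode subunits.

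The series compared msn2/4 mutant cells exposed for 3 hours to zymolyase, at 5 units per ml, with untreated msn2/4 mutant cells from the same divided culture, both grown at 24 °C in YEPD, a rich medium. Zymolyase is an enzyme preparation that digests cell wall glucan, and Msn2 and Msn4 are the transcription factors of the general stress response. The exact alleles and the strain background are not given in the sources used here, no strain with intact MSN2 and MSN4 is analysed here, and the ratios compare RNA of the same mutant in both channels, so they cannot check the genotype. RNA of both parts was hybridised together on 2 two-colour arrays: array 1 carried zymolyase RNA in Cy3 and untreated RNA in Cy5, and array 2 the exchanged dyes. The design text gives 1 culture and 2 arrays, whereas the text attached to the samples speaks of 2 cultures and 4 arrays per condition. Following the design text, the arrays are 1 biological replicate measured on 2 hybridisations. The conditions could not be tested against each other. Every SD between the arrays below, including each SD after ±, covers hybridisation and dye error only (n = 2 arrays). SDs across genes are named as such.

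The proteasome degrades proteins that carry ubiquitin chains. Its core particle is a stack of rings: outer alpha rings form the gate, and inner beta rings hold the proteolytic sites. The regulatory particle caps the core; its base contains a ring of ATPases that unfolds substrates and its lid removes ubiquitin. In yeast, Rpn4 activates most of the subunit genes together, and Rpn4 is itself a short-lived substrate of the proteasome, which closes a feedback loop. Zymolyase stress is better known for the cell wall integrity pathway than for the proteasome.

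The deposited values are log2 ratios of the channels, without the intensities behind them, so neither the level in zymolyase or in untreated cells nor the signal behind a ratio is known. A ratio of total RNA from a culture also cannot tell fewer cells that express a gene from less of its RNA per cell. The sign of array 2 was turned so that both arrays are read the same way round, and positive values are likely zymolyase over untreated. The labels state neither the turn nor the numerator; both rest on the assumption that zymolyase raises cell wall transcripts, as published work describes. Under this reading a difference between the conditions has the same sign on both arrays, and a shift that follows the dye has opposite signs. The means with array 2 as deposited are therefore given as well.

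Of the 34 genes, 30 had a ratio on both arrays (88.2%), against 36.3% of all 6207 genes. PRE8 and RPN12 had a ratio on array 2 alone, and SCL1 and RPN14 had none. The core was valued on both arrays in 12 of 14 genes and the regulatory group in 18 of 20. How the authors chose which values to leave out is unstated.

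None of the 30 members reached a mean ratio of 2-fold in either direction with the same sign on both arrays. Under that rule 2.88% of the 2254 genes valued on both arrays were called positive and 13.6% negative. At 1.5-fold PRE10 and RPT5 were negative, 2 of the 30 members, and none was positive, where the shares of all genes were 22.8% and 4.84%. After each array was centred on its median no member passed at 2-fold, against 5.41% of all genes called positive and 7.14% negative. The member means lay between -0.94 and 0.26, with a median of -0.25, beside a median of -0.37 over all genes. They were also closer together: their SD across genes was 0.33, against 0.89 for all genes. Within 0.5 of the all-gene median lay 25 of 30 (83.3%), against 58.8% of all genes. The ubiquitin-system genes described below lay about as near, 25 of 28 (89.3%), with an SD across genes of 0.53. For ubiquitin and its attaching enzymes alone these were 15 of 16 (93.75%) and 0.32. No member is shown to differ between zymolyase and untreated cells at 2-fold. The 2 members negative at 1.5-fold (6.67%) were a smaller share than the 22.8% of all genes, and no test was made. The mean was below 0 in 25 of 30 members (83.3%), against 76.0% of all genes, and after centring in 12 (40.0%), against 48.2% of all genes.

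**Figure D1:**
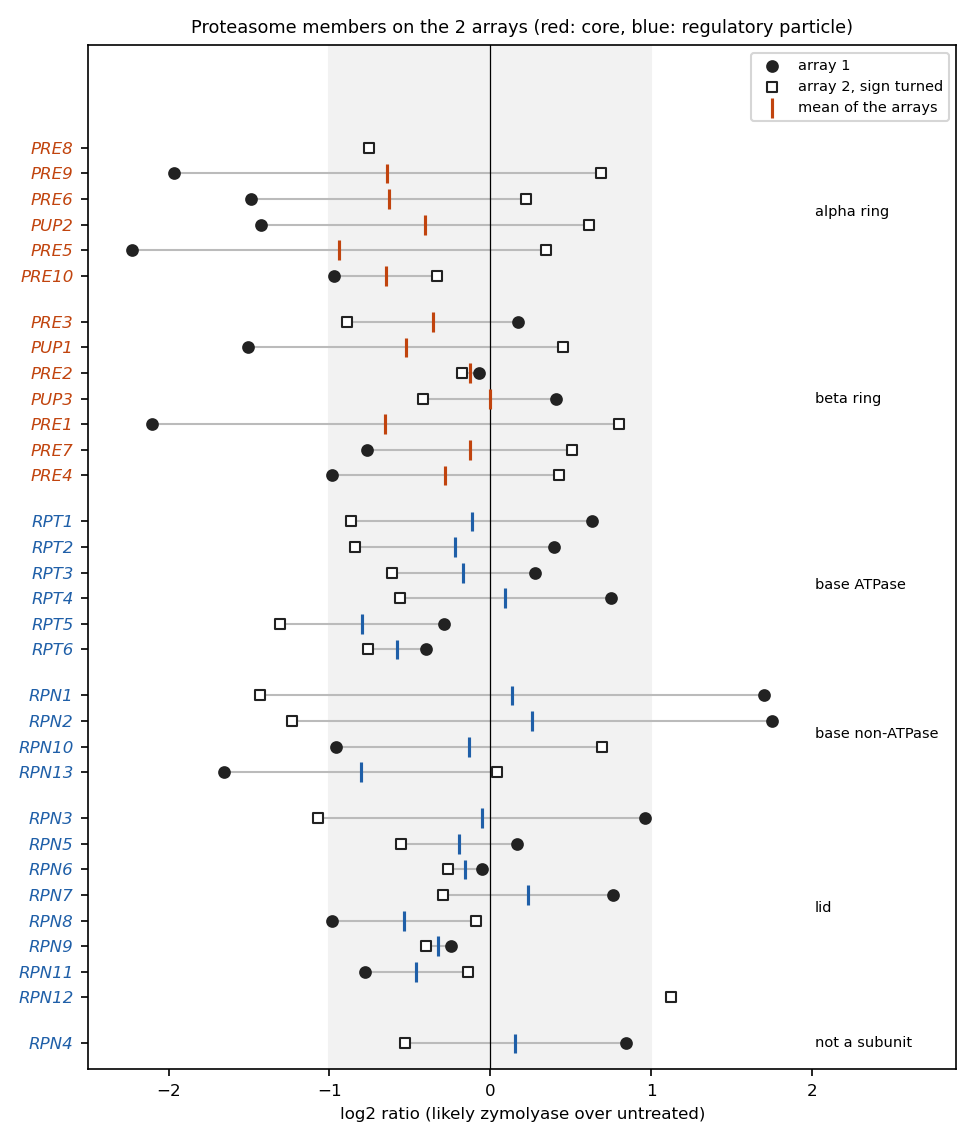
Log2 ratio (horizontal axis) of the 32 proteasome members valued on at least 1 array, by module; filled circles are array 1, open squares array 2 with its sign turned, vertical ticks the mean, and the grey band lies within 2-fold. The means stay between -0.94 and 0.26, while most core genes lie left of 0 on array 1 and right of it on array 2, and RPN1 and RPN2 the other way.

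The arrays opposed each other for most members. In 22 of the 30 genes the sign differed between the arrays, and the 8 genes with the same sign (26.7%, against 39.8% of all genes) were all negative: PRE2, PRE10, RPT5, RPT6, RPN6, RPN8, RPN9 and RPN11. Across the 30 members Pearson's r of the oriented ratios was -0.83, against -0.19 over all 2254 genes. These are correlations across genes that share the same 2 hybridisations. The small member means are therefore mostly differences of opposing ratios, and the median SD between the arrays was 0.92 for members and 0.99 for all genes.

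**Figure D2:**
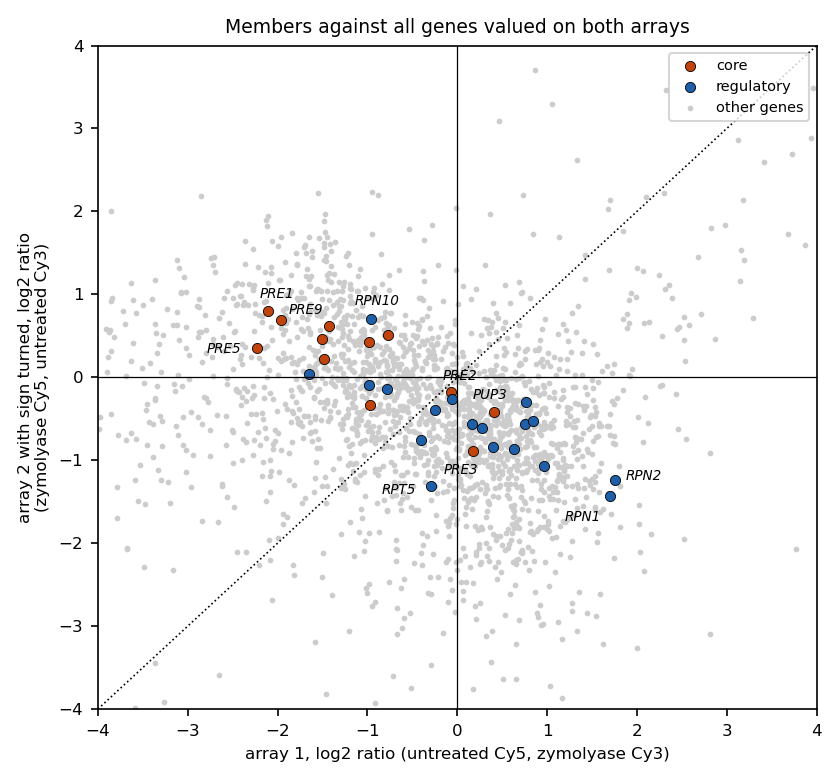
Log2 ratio on array 1 (horizontal) against array 2 with its sign turned (vertical) for core members, regulatory members and the other genes valued on both arrays; 95 other genes lie outside the axis limits of 4. Points on the dotted diagonal would agree between arrays; the members run from PRE1 and PRE5 at the upper left to RPN1 and RPN2 at the lower right, across it.

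The alpha ring had the lowest module median, -0.64 over 5 valued genes. PRE5 (YMR314W) had -2.23 on array 1 and 0.35 on array 2, a mean of -0.94 ± 1.82, the lowest of all members. PRE9 (YGR135W), the alpha subunit that yeast can live without, had -1.97 and 0.69, a mean of -0.64 ± 1.88. Both were thus far below 0 on array 1 and above it on array 2. PRE6 had -1.49 and 0.22 (mean -0.63 ± 1.21), and PUP2 had -1.42 and 0.61 (mean -0.40 ± 1.44). PRE10 (YOR362C) was the exception, negative on both arrays at -0.97 and -0.33, with a mean of -0.65 ± 0.45 (0.638-fold). PRE8 had -0.76 on array 2 and no value on array 1, so the 2 alpha genes that were negative on array 2 were PRE10 and PRE8.

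In the beta ring all 7 genes were valued on both arrays and their median was -0.28. The 3 catalytic subunits had unlike ratios. PUP1, which carries the trypsin-like activity, had -1.51 on array 1 and 0.46 on array 2, a mean of -0.52 ± 1.39. PRE3, with the caspase-like activity, had 0.18 and -0.89, a mean of -0.36 ± 0.75. PRE2 (YPR103W), with the chymotrypsin-like activity, had -0.072 and -0.18, a mean of -0.13 ± 0.075, the smallest difference between the arrays of any member. On array 1 the trypsin-like subunit was therefore well below the other 2 catalytic genes, and on array 2 above them. Among the non-catalytic beta subunits, PRE1 had -2.10 and 0.80 (mean -0.65 ± 2.05), PRE7 had -0.77 and 0.51 (mean -0.13 ± 0.90), and PRE4 had -0.99 and 0.43 (mean -0.28 ± 1.00). PUP3 had 0.41 and -0.42, and its mean, -0.0033 ± 0.58, was nearest to 0 of all members.

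PRE2, PRE3 and PUP3 stood apart from the rest of the core on array 1; these 3 were singled out after their values were seen. They lay between -0.072 and 0.41 there, and the other 9 core genes between -2.23 and -0.77. On array 2 they lay between -0.89 and -0.18, against -0.33 to 0.80 for the other 9, of which 8 were positive. All 3 belong to the beta ring and have the length of other core genes (618 to 864 bases). Their means, from -0.36 to -0.0033, overlapped those of the other 9, from -0.94 to -0.13.

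The 6 ATPases of the base, RPT1 to RPT6, form the unfolding ring and were all valued on both arrays, with a median of -0.19. All 6 were negative on array 2, from -1.31 to -0.56, and 4 of them were positive on array 1. RPT5 (YOR117W) had -0.29 on array 1 and -1.31 on array 2, a mean of -0.80 ± 0.72 (0.575-fold). RPT6 had -0.40 and -0.76, a mean of -0.58 ± 0.26. These were the 2 ATPases with the same sign on both arrays. RPT4 had the only positive ATPase mean, 0.094 ± 0.93, from 0.75 and -0.56. RPT1 had 0.63 and -0.86 (mean -0.11 ± 1.06), RPT2 had 0.40 and -0.84 (mean -0.22 ± 0.87), and RPT3 had 0.28 and -0.61 (mean -0.17 ± 0.63). The means of 4 ATPases lay between -0.22 and 0.094, with RPT5 and RPT6 below them, and every one of those 4 means was smaller than its SD.

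RPN1 and RPN2, the large scaffold subunits of the base, had the highest ratios of all members on array 1 and were among the 3 lowest on array 2. RPN2 (YIL075C) had 1.75 and -1.23, a mean of 0.26 ± 2.11, the highest of all members. RPN1 (YHR027C), which docks ubiquitin-binding proteins, had 1.70 and -1.43, a mean of 0.14 ± 2.22. The sign of both means thus rests on array 1. The ubiquitin receptors RPN10 and RPN13 went the other way on each array. RPN10 had -0.96 and 0.70, a mean of -0.13 ± 1.17. RPN13 had -1.65 and 0.043, a mean of -0.81 ± 1.20 (0.572-fold), the second lowest of all members.

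The lid had a median of -0.20 over 7 genes valued on both arrays, and all 7 were negative on array 2. RPN11, the metalloprotease that cuts ubiquitin chains from substrates, had -0.78 on array 1 and -0.14 on array 2, a mean of -0.46 ± 0.45. Its partner RPN8 had -0.99 and -0.090 (mean -0.54 ± 0.63), RPN9 had -0.25 and -0.40 (mean -0.32 ± 0.11), and RPN6 had -0.053 and -0.26 (mean -0.16 ± 0.15). These 4 had the same sign on both arrays. RPN7 had 0.76 and -0.29 (mean 0.23 ± 0.74), the only positive mean of the lid. RPN5 had 0.17 and -0.56 (mean -0.20 ± 0.51), and RPN3 had 0.97 and -1.07 (mean -0.053 ± 1.44). RPN12 had 1.12 on array 2 alone, the highest array 2 ratio of all 32 valued members, against a range of -1.07 to -0.090 for the other lid genes there.

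RPN4 (YDL020C), the activator of the proteasome genes, had 0.84 on array 1 and -0.53 on array 2, a mean of 0.16 ± 0.97 (1.11-fold). Its ratios lay at percentile 84.1 of the genes valued on array 1 and at percentile 44.3 on array 2. Of 4 listed activators of RPN4 transcription (PDR1, PDR3, YAP1 and HSF1), PDR3 had -0.26 on array 2 and the other 3 had no ratio. A difference in RPN4 RNA was not detectable on these arrays.

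The core was set against the regulatory group on each array and on their mean. On array 1 the core median was -1.20 and the regulatory median 0.22, a difference of -1.43, with 10 of 12 core genes and 8 of 18 regulatory genes negative. On array 2 the order was the other way: over 13 and 19 valued genes the core median was 0.35 and the regulatory median -0.56, a difference of 0.91. On the mean of the arrays the core median was -0.46 and the regulatory median -0.16. The difference of -0.30 is smaller than the SD of 1.65 between the arrays' own differences, and the means overlapped, from -0.94 to -0.0033 in the core and from -0.81 to 0.26 in the regulatory group. All 12 core means were negative, as were 13 of 18 regulatory means (72.2%), where 76.0% of all genes were. After centring 7 core means, all 5 of the alpha ring and 2 of the beta ring, and 5 regulatory means were negative. A difference between core and regulatory genes in their response to zymolyase was not detectable.

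Counts from 1 array alone show the same opposition. On array 1, RPN1 and RPN2 were at least 2-fold positive, where 12.2% of all genes were. PRE1, PRE5, PRE6, PRE9, PUP1, PUP2 and RPN13 were at least 2-fold negative there, 7 of 30 members (23.3%), against 35.4% of all genes. On array 2, RPN12 was positive, against 9.29% of all genes, and RPN1, RPN2, RPN3 and RPT5 were negative, 12.5% of 32 members, against 25.9% of all genes. RPN1 and RPN2 were thus past 2-fold on both arrays with opposite signs.

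With array 2 as deposited, RPN1, RPN2 and RPN3 had means of 1.57, 1.49 and 1.02 and passed as positive, 3 of 30 members, against 12.3% of all genes. PRE1, PRE9, PRE5 and PUP2 had -1.45, -1.33, -1.29 and -1.02 and passed as negative, 4 of 30 members (13.3%), against 13.7% of all genes. Every positive gene there was of the regulatory group and every negative one of the core, but both shares are near the background. The core median was then -0.78 and the regulatory median 0.48. The arrays correlate positively in that reading, and it is not settled by the values of these genes which reading holds.

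Gene length moved with these ratios. Core genes are 597 to 867 bases long and regulatory genes 471 to 2982. Over all 2174 genes with a known length and both ratios, Spearman's rho with length was 0.34 on array 1, -0.46 on array 2 and 0.026 for the mean. Over the 30 members it was 0.78, -0.73 and 0.60. Over the 18 regulatory genes alone it was 0.90, -0.77 and 0.68. These points share 2 hybridisations and are given as a description.

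Genes of other functions with the length of the core had similar medians. The 342 other genes of 597 to 867 bases valued on both arrays had medians of -1.21 on array 1 and 0.29 on array 2, beside -1.20 and 0.39 for the 12 core genes. The 698 other genes over 1000 and up to 1600 bases long had medians of 0.10 and -0.52, beside 0.28 and -0.56 for the 13 regulatory genes of that length. The short regulatory genes were near the core: RPN10, RPN11 and RPN13 had a median of -0.96 on array 1 and 0.043 on array 2, and in a comparison added after seeing the data the core differed from these 3 by -0.0049 on the mean. RPN1 and RPN2 had 1.70 and 1.75 on array 1, above the upper quartile of 0.97 over 33 other genes of 2800 to 3000 bases. On array 2 their -1.43 and -1.23 lay inside the quartiles of those genes, -1.48 and -0.51.

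**Figure D3:**
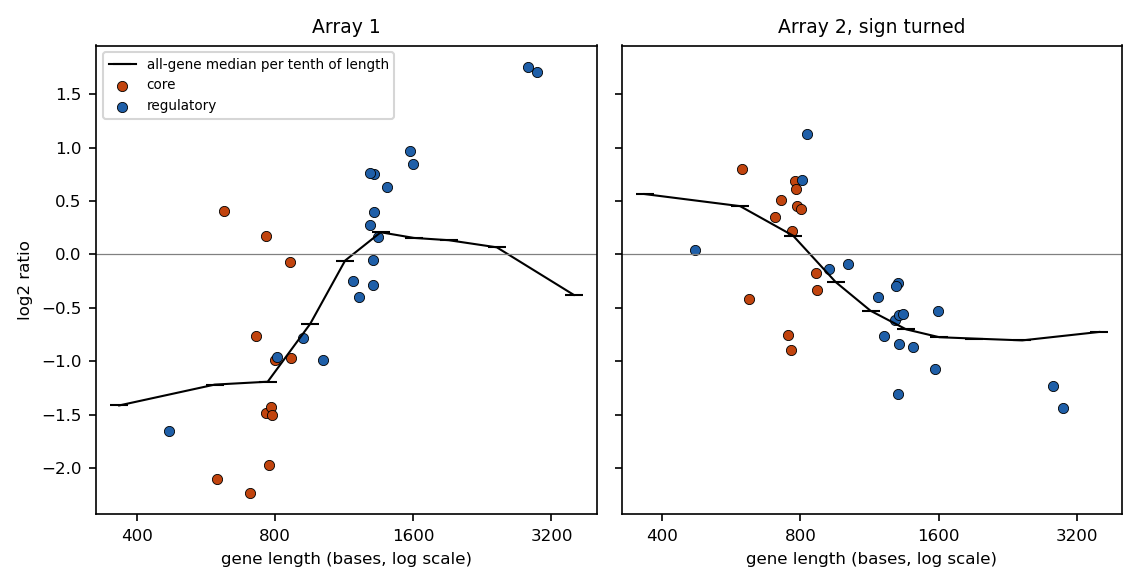
Log2 ratio of each member against its gene length (log scale) on array 1 (left) and on array 2 with its sign turned (right); the line joins the medians of all genes valued on that array in 10 equal classes of length. Most core and regulatory genes follow the course of that line on both arrays, with departures to either side. PRE2, PRE3, PUP3, RPN1, RPN2 and RPN3 are among those above it on array 1 and below it on array 2. PRE1, PRE5 and PRE9 are among those below it on array 1 and above it on array 2. On array 2, PRE8 also lies below it and RPN12 above it.

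When the median of each of 10 gene length classes was subtracted on each array, the core median of the mean ratios was 0.044 and the regulatory median 0.084, a difference of -0.041. With array 2 as deposited the difference was -0.16 with the same subtraction, likewise added after seeing the data, against -1.26 without it. After the subtraction PUP3 stood at 1.63 on array 1 and -0.87 on array 2, PRE3 at 1.37 and -1.07, and PRE2 at 1.12 and -0.35. RPN1 stood at 2.08 and -0.71, and RPN2 at 1.69 and -0.43. Each of these 5 genes had opposite signs on the arrays after the subtraction, as had most of the 30 members. The other way round, PRE5 stood at -1.04 and 0.17, PRE1 at -0.89 and 0.35, and PRE9 at -0.775 and 0.51. Positive on both arrays were 7 members: RPN7 (0.55 and 0.41), RPT4 (0.55 and 0.14), RPN4 (0.69 and 0.24), PRE7 (0.42 and 0.34), PRE4 (0.21 and 0.25), RPN10 (0.23 and 0.52) and RPT3 (0.072 and 0.090). Negative on both were 3: RPT5 had -0.50 and -0.61, RPT6 -0.34 and -0.23, and RPN13 -0.24 and -0.52. These were 7 and 3 of 30 members. Among all 2174 genes with a known length and both ratios, 493 were positive on both arrays after the subtraction and 400 negative. No member mean reached 2-fold after the subtraction, the extremes being RPN1 at 0.69 and RPT5 at -0.55. The part of length in these ratios beyond this subtraction was not tested.

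The other genes of the ubiquitin system were taken from lists chosen with earlier results of these data known. Of 13 assembly and associated factors, SEM1 was not matched to a gene on the array, 4 had both ratios, and none passed at 2-fold. UMP1, the maturation factor of the core and a gene of only 447 bases, had -3.84 and 0.95, a mean of -1.45 ± 3.39, and did not pass because the signs differed. UBP6, a proteasome-bound deubiquitinase, had -0.24 and -1.15, a mean of -0.69 ± 0.64. BLM10, an alternative activator of the core, had -3.90 on array 2 alone and was named after its value was seen. The list median was -0.58.

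Of 11 Cdc48 and shuttle factors 5 had both ratios, none passed, and the median was -0.34. DSK2, a shuttle factor that carries ubiquitinated proteins to the proteasome, had the largest mean of these, -0.77 ± 1.13, followed by RAD23, another shuttle factor, at -0.64 ± 0.34, negative on both arrays. CDC48, the unfolding ATPase upstream of the proteasome, was named after its values were seen: it had 1.62 and -1.59, much as RPN1 did.

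Ubiquitin itself and the enzymes that attach it had 16 of 26 genes valued on both arrays, none past 2-fold, and a median of -0.38. The 2 largest means were -0.65 ± 2.95 for UBC13, a conjugating enzyme, and -0.65 ± 0.39 for SSM4, a ubiquitin ligase of the endoplasmic reticulum. SSM4 was negative on both arrays, and UBC13 had -2.74 and 1.44. Opposite signs were again the rule, with 2 of 16 genes of the same sign (12.5%). The near-identical UBC4 and UBC5 may share signal on such an array, as may RPL40A and RPL40B.

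Of 16 deubiquitinases 3 had both ratios, and UBP15 was the only gene of the 5 lists to pass. UBP15 had 2.00 on array 1 and 1.32 on array 2, a mean of 1.66 ± 0.48 (3.17-fold). Its arrays had the same sign, unlike those of UBP1 (0.72 and -1.15) and UBP7 (-1.74 and 1.03), which were named after their values were seen. With array 2 as deposited the mean of UBP15 was 0.34. Counted over the lists, 1 of 28 genes valued on both arrays was positive (3.57%) and none negative, against 2.88% and 13.6% of all genes.

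**Figure D4:**
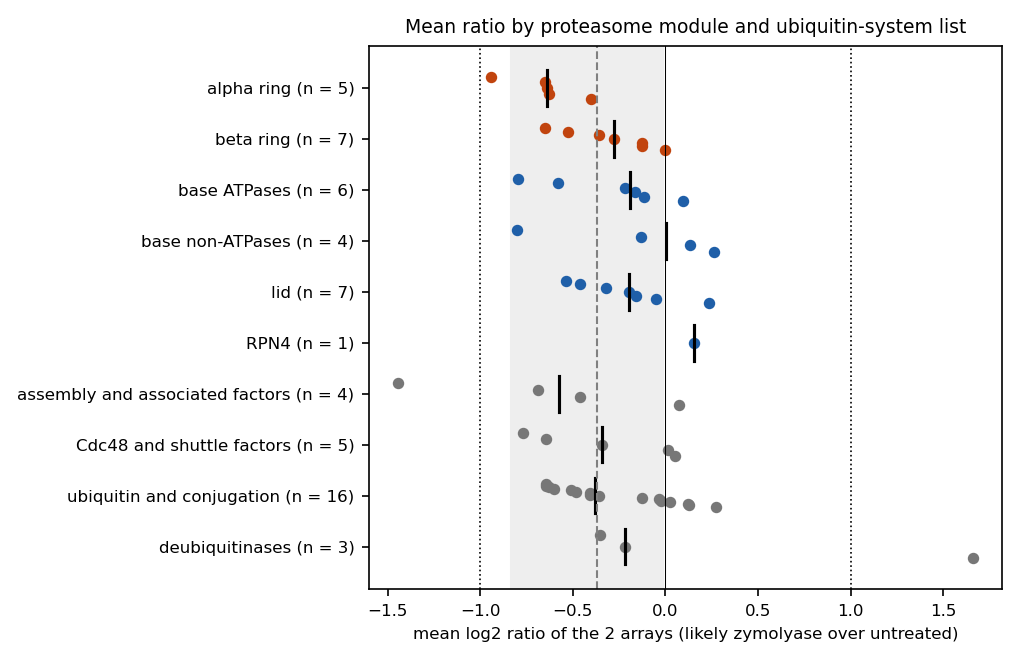
Mean log2 ratio of the 2 arrays for each gene valued on both, by proteasome module (core red, regulatory group and RPN4 blue) and by list of the ubiquitin system (grey); black bars are medians, the dashed line and band are the median and quartiles of all genes, and dotted lines mark 2-fold. UMP1 at -1.45, whose arrays differ in sign, and UBP15 at 1.66 lie outside the dotted lines.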

How the data were processed

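The authors deposited 1 log2 ratio per gene and array for 2 two-colour arrays. Scanner, background correction, normalization, numerator and the filter on values are not given in the sources used here. The log base was checked from the values. All 387 array 1 values below -2 were the log2 of a whole multiple of 0.0001, to the rounding of 4 decimals. So were all 239 array 2 values below -2 after turning the sign, but only 3 of 40 as deposited. These counts do not show which condition was the numerator on either array, so they do not settle the turn. Of 6209 rows 2 are controls; 5654 of 6207 names matched a RefSeq symbol of assembly R64 by locus tag. Gene length is the RefSeq gene span; no coordinates are printed, since the probes' build is not given. The sign of array 2 was turned, and mean and SD were taken per gene (Python 3.11.15, pandas 2.3.3). A gene passed at a mean of 2-fold (1 on the log2 scale) with the same sign on both arrays. The arrays are 1 replicate, so no test was made. The calculations were tested on simulated data.

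The lists were chosen with earlier results of these data known, and the members by a rule on symbols that used no measured value. All members are accounted for; of each list, passing genes were named (up to 4), or the 2 largest means. Alternatives were array 2 as deposited, every sign turned, centring, 1 array alone, 1.5-fold, 2-fold on each array, arrays within 1, length classes, members valued on either array, and no RPN4 or RPN14. A planned search of promoters for the Rpn4 site was not run, as promoter sequences were not used here.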

Additional observations from a re-analysis of the deposited data

How the results depend on the processing

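The medians (-0.25 for members, -0.46 for the core, -0.16 for the regulatory group, difference -0.30) and the counts of 0 positive and 0 negative depended on the reading of the arrays. With array 2 as deposited the member median was 0.091 and the regulatory one 0.48, with 3 genes positive and 4 negative. Turning every sign gave 0.25, 0.46, 0.16 and 0.30 by construction. Centring gave 0.14 for members, -0.075 for the core and 0.23 for the regulatory group. Subtracting length classes gave 0.084, 0.044 and 0.084, and with array 2 as deposited, added after seeing the data, 0.017 for members and 0.065 for the regulatory group. From 1 array alone the values ranged from -0.31 to -0.27 for members, -1.20 to 0.35 for the core, -0.56 to 0.22 for the regulatory group and -1.43 to 0.91 for the difference, with 1 to 2 genes positive and 4 to 7 negative. With 3 core and 7 regulatory genes whose arrays lay within 1, the difference was 0.20. At 1.5-fold 2 genes were negative. Requiring 2-fold on each array left both counts at 0. Leaving out RPN4 and RPN14, or taking members valued on either array, kept the sign of all 4 medians and differences. The ratios of 40 genes valued on both arrays are given above (30 members and 10 of the lists). Of these, 10 moved by more than their SD between the arrays with array 2 as deposited. After centring 6 did, and after subtracting length classes 8. That SD is large where the arrays oppose each other, so a gene not counted can still change much. With array 2 as deposited RPN1 went from 0.14 to 1.57, within its SD of 2.22. The cause was not tested. No paired analysis was possible because the arrays are 1 dye-swapped replicate. Signal over background is unknown, so what it limits cannot be given.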
